A study of Mus musculus with 11 samples.

Results

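The genes described here, measured in mouse embryonic fibroblasts, encode factors that lengthen actin filaments at their growing end. They are 7 of the formins (Diaph1, Diaph2, Diaph3, Fmnl2, Fmnl3, Daam1 and Fhod1) and the 3 Ena/VASP genes (Vasp, Enah and Evl). They were picked by gene symbol from the deposited gene tables, with no cut on measured values but with earlier results of these data known. All 10 were found among the 46469 symbols listed. The files name 7 of them by these symbols and the other 3, the Diaphanous formins, by the older symbols Diap1, Diap2 and Diap3, which were matched through RefSeq synonyms at the same position. Each was a single locus, and all 10 passed the filter on low values.

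Both protein families sit on the barbed end of an actin filament, add actin that profilin delivers, and keep capping protein from closing that end. Formins also start filaments of their own, and the Diaphanous and FMNL formins are folded shut until a signal at the membrane opens them. Ena/VASP proteins are brought to focal adhesions and to the leading edge of fibroblasts by partners such as zyxin, palladin and lamellipodin, where they help build lamellipodia and filopodia.

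Poly(A) RNA was sequenced in 11 libraries of BALB/c embryonic fibroblasts from embryos aged 10.5 days, grown in DMEM with serum and harvested at 70% confluence. The groups differ in the β-actin gene: Actb +/+ (WT, 4 libraries), Actb +/- (Het, 4 libraries) and Actb -/- (KO, 3 libraries, numbered 1, 3 and 4). The submitters call them biological replicates without saying whether each came from its own embryo, culture or line, so the p-values measure the spread between these libraries, which may leave out that between embryos. A further KO library, which the submitters set aside for quality, was not analysed here.

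The targeted gene checked the labels. Actb measured 1081 to 1532 FPKM in WT, 819 to 872 in Het and 45.0 to 47.3 in KO, with no overlap between groups. FPKM scales fragments to transcript length and library size, so that levels of different genes can be set side by side. The depth of the libraries, read from the smallest FPKM steps, ran from 60.8% to 126% of that of WT 1. The summed FPKM of 8 fibroblast markers was 1451 to 1902 in WT, 2272 to 2589 in Het and 3510 to 4159 in KO, most of it from Vim, S100a4 and Fn1. Against WT, all 7 tested fibroblast markers rose in KO and 6 of them rose in Het. Over all genes tested, 23.3% and 21.7% were called higher in these comparisons. The levels and the place of Het differed within the list. Fap never reached 1 FPKM, Thy1 and Pdgfra stayed below 1 in every WT library, and Col1a2 averaged 6.86 FPKM in WT, 193 in Het and 11.5 in KO. Smooth muscle markers summed to 107 to 127 FPKM in WT, 252 to 270 in Het and 7665 to 8437 in KO, while their defining members Myh11 and Myocd stayed below 1 FPKM in every library. None of the 6 endothelial or 5 skeletal muscle markers reached 1 FPKM, and neither did Ptprc, Adgre1, Csf1r or Tyrobp of the blood list. The other blood markers were low, Cd68 at up to 4.47 FPKM and Coro1a at 1.43 to 4.22 in WT, 1.33 to 1.88 in Het and 0.220 to 1.324 in KO (KO against WT -1.13, adjusted p = 0.00538). Epithelial markers summed to 3.02 to 7.49 FPKM in WT, 5.49 to 9.55 in Het and 0.835 to 0.902 in KO, with Epcam, Cdh1, Krt8 and Cldn4 never at 1 FPKM. In Het, mean Krt18 rose from 1.70 to 6.53 FPKM while Krt14 fell from 2.57 to 0.313, and both were lower in KO than in WT. Neuronal markers, of which Rbfox3, Elavl3, Snap25 and Syp never reached 1 FPKM, summed to 10.8 to 19.7 in WT, 22.5 to 29.7 in Het and 23.3 to 25.6 in KO. Mean Tubb3 was 10.9 FPKM in WT, 24.6 in Het and 13.6 in KO. Mean Map2 was 3.26, 0.596 and 10.6, so these genes moved in opposite directions in Het. What part these marker changes have in the values below was not tested.

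The promoters of the 4 members with the largest differences from WT, Vasp, Enah, Diaph3 and Fmnl3, are shown to set the sequences beside the opposite directions of change given below. Each run is the 250 bases just before the RefSeq transcription start on the minus strand of GRCm38.p6, written in the direction of the gene. They lie at chr7:19271855-19272104, chr1:182019981-182020230, chr14:87141225-87141474 and chr15:99370483-99370732. Capitals mark a match to the CCAAT box or to the TEAD core GGAATG on either strand.
Vasp: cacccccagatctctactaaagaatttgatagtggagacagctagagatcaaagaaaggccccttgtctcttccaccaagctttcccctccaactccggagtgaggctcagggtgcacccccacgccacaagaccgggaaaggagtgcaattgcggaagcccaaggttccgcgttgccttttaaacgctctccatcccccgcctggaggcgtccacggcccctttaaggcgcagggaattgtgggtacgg
Enah: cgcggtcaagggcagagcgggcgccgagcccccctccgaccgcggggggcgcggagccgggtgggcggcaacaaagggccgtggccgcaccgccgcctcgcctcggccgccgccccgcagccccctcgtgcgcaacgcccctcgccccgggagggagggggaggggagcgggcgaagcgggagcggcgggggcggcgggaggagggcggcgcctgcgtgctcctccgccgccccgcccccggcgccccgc
Diaph3: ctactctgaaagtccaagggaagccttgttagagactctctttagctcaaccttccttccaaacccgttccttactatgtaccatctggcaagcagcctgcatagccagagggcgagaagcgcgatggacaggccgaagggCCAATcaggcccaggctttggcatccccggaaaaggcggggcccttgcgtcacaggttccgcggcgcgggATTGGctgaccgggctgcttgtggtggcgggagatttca
Fmnl3: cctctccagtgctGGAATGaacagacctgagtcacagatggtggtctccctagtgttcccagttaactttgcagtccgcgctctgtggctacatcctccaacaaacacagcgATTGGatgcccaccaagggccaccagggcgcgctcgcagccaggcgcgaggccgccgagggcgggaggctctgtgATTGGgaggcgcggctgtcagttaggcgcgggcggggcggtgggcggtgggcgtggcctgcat
The motifs searched, each on both strands, were the CCAAT box, the TEAD core GGAATG, the GC box GGGCGG, the TATA box as TATAAA and, by name, the SRF CArG box. GC box matches are not capitalised here and may overlap each other. The Enah stretch was 84.8% G and C and held 6 GC box matches, against a median G and C content of 52.4% over 32851 mouse promoter windows of the same length. Fmnl3 held 4 GC box matches, the first listed windows of Evl, Diaph2, Fmnl2, Daam1 and Fhod1 held 3 each, and Diaph3 held none, while 32.7% of all windows had a match and 8.47% had 3 or more. The Vasp stretch, at 57.2% G and C, held no match to any of the 5 motifs. Diaph3 and Fmnl3 each held 2 CCAAT matches, against 10.1% of all windows with 2 or more. Fmnl3 had 1 GGAATG match, as did each listed window of Evl, against 12.6% of all windows with a match. No window of the 9 members searched held a CArG or TATAAA match, found in 1.47% and 12.4% of all windows. Diaph1 was left out of this search.

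Among the Ena/VASP genes, loss of Actb went with a swap of the leading member: Vasp rose in Het and rose further in KO, whereas Enah rose in Het and fell in KO. Vasp encodes the vasodilator-stimulated phosphoprotein, a filament elongator of focal adhesions and of the cell edge (gene17017, chromosome 7, 19256929 to 19271854 in GRCm38). It measured 13.7, 16.3, 17.4 and 18.2 FPKM in the WT libraries, 27.2, 23.4, 25.3 and 26.8 in Het, and 43.0, 47.1 and 49.4 in KO. The 3 groups formed separate steps, with every Het library above every WT library and below every KO library. Group means, with SD over libraries, were 16.4 ± 1.97 FPKM (WT, n = 4), 25.7 ± 1.71 (Het, n = 4) and 46.5 ± 3.25 (KO, n = 3), or 1.56-fold WT in Het and 2.83-fold in KO. On the log2(FPKM + 1) scale, on which all differences are given, limma put KO 1.45 ± 0.0952 (SE) above WT (adjusted p = 5.08e-07) and Het 0.62 ± 0.0881 above WT (adjusted p = 0.000222). In RNA of whole cultures, a change in every cell and a change in the share of cells that express the gene cannot be told apart.

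Enah, the mammalian Enabled protein Mena, which acts in lamellipodia, filopodia and adhesions, lies on chromosome 1 from 181896384 to 182019980 (gene2479). Its levels were 30.8, 24.3, 26.6 and 26.0 FPKM in WT, 38.5, 45.1, 42.3 and 43.3 in Het, and 17.3, 19.5 and 18.8 in KO. Het was thus the highest group and KO the lowest, with WT between them and no overlap. Limma placed Het 0.64 ± 0.0788 above WT (adjusted p = 8.32e-05) and KO below WT (log2 difference -0.51 ± 0.0851, adjusted p = 0.000526). The test of KO against Het, which is also the test of the difference between the changes from WT, gave -1.15 ± 0.0851 (adjusted p = 1.54e-06). In KO the mean was 0.438-fold that of Het.

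Evl, the Ena/VASP-like gene on chromosome 12 (gene31163, 108554720 to 108688516), rose in KO. It measured 16.1, 19.9, 17.7 and 20.2 FPKM in WT, 15.6, 16.7, 15.7 and 17.3 in Het, and 24.9, 22.9 and 24.5 in KO. The KO libraries lay above all others, while WT and Het overlapped. KO exceeded WT by 0.37 ± 0.0819 (limma, adjusted p = 0.00344) and Het by 0.54 ± 0.0819 (adjusted p = 0.000315). Het differed from WT by -0.17 ± 0.0758, which did not pass (adjusted p = 0.0978), but passed without the library WT 1 (-0.23, adjusted p = 0.0181). The locus overlaps Degs2, at 5.02 to 7.14 FPKM in WT, 5.09 to 6.76 in Het and 8.49 to 8.97 in KO, and Gm16596, at 0.393 to 1.09, 0.605 to 1.29 and 2.46 to 3.42. Both were thus highest in KO like Evl. Another overlapping locus that reached 1 FPKM, LOC105245069, had KO libraries that overlapped those of WT and Het. It measured up to 1.22 FPKM in WT, up to 0.944 in Het, and 1.74, 0.698 and 1.24 in KO. The part of these loci in the Evl values was not tested. The sources used here do not say whether fragments were counted by strand.

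**Figure D1:**
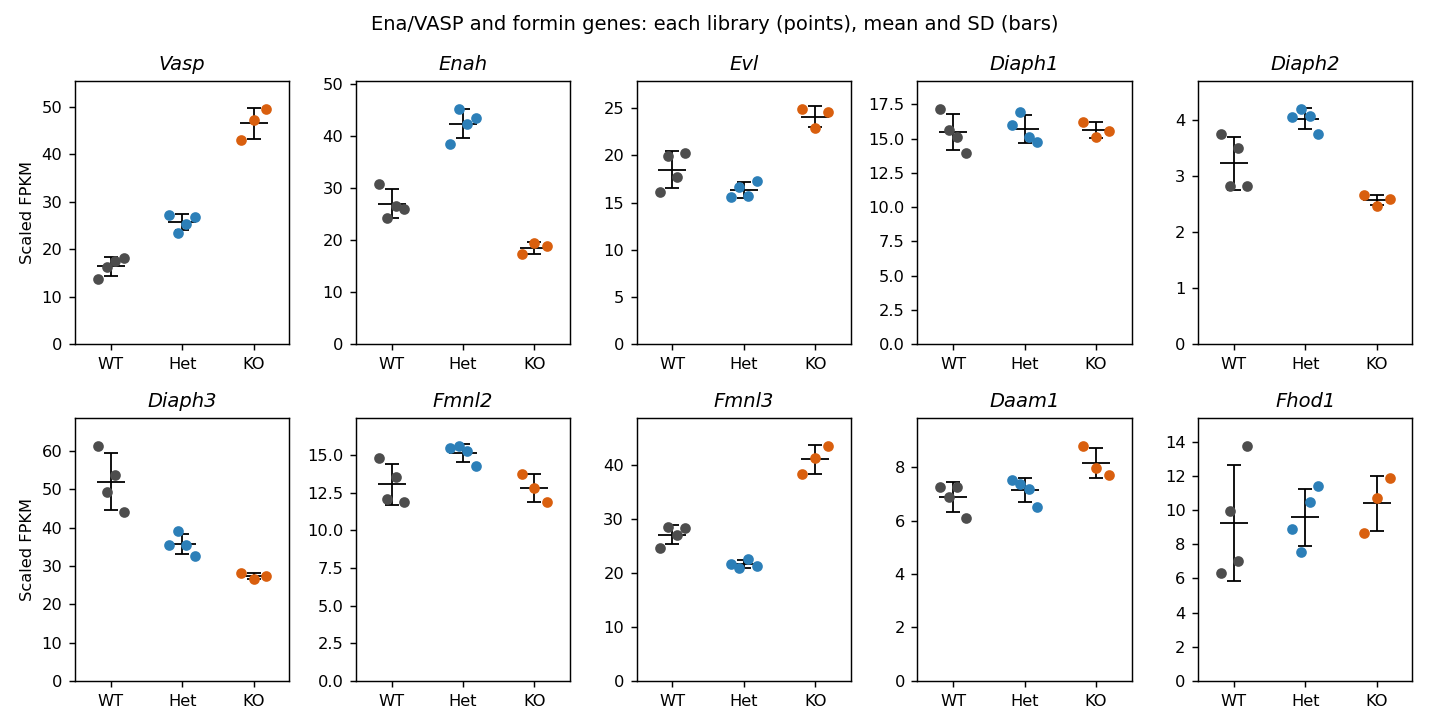
Scaled FPKM of the 10 genes (vertical axes from 0, each with its own range) in WT, Het and KO. Points are libraries in replicate order, the long bar is the mean and the caps are 1 SD; Vasp steps up from 16.4 to 25.7 to 46.5 FPKM, Enah peaks in Het at 42.3, and Diaph3 steps down from 52.0 to 27.3.

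Added up, the Ena/VASP genes gave, as mean ± SD, 61.8 ± 1.84 FPKM (WT, n = 4), 84.3 ± 2.65 (Het, n = 4) and 89.1 ± 3.84 (KO, n = 3). The Het sums, 81.3 to 87.4, lay above the WT sums, 60.5 to 64.5, and overlapped those of KO, 85.1 to 92.8. Its make-up differed most clearly in KO. Enah held 43.6% of it in WT, 50.2% in Het and 20.8% in KO, with WT and Het libraries overlapping. The share of Vasp was 26.5% in WT, 30.5% in Het and 52.1% in KO, and its lowest KO share, 50.5%, lay above its highest elsewhere, 33.4%. Evl held 29.9%, 19.3% and 27.1%. Sums and shares are given as descriptions with no test, since shares of 1 sum move together.

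Among the 7 formin members, Diaph3 and Fmnl3 had the largest differences between KO and WT, in opposite directions. Diaph3, the Diaphanous formin mDia2, known for work in filopodia and in the cleavage furrow (gene35671, chromosome 14, 86655361 to 87141248), fell in both genotypes. It measured 61.3, 49.1, 53.6 and 44.0 FPKM in WT, 35.4, 39.0, 35.6 and 32.6 in Het, and 28.0, 26.6 and 27.3 in KO. The groups stepped down without overlap, and the KO libraries lay closest to each other. The mean ± SD went from 52.0 ± 7.32 FPKM (WT, n = 4) to 35.6 ± 2.64 (Het, n = 4) and 27.3 ± 0.704 (KO, n = 3), decreases of 31.5% and 47.5%. Limma gave -0.53 ± 0.0926 for Het against WT (adjusted p = 0.000951), -0.89 ± 0.10 for KO against WT (adjusted p = 3.13e-05) and -0.37 ± 0.10 for KO against Het (adjusted p = 0.0111).

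Fmnl3, a formin of the FMNL branch that works at the leading edge and in filopodia (gene37431, chromosome 15, 99317210 to 99370503), went down in Het and up in KO. Its levels were 24.5, 28.4, 27.0 and 28.3 FPKM in WT, 21.7, 20.96, 22.6 and 21.3 in Het, and 38.2, 41.2 and 43.5 in KO. Every Het library was thus below every WT library, and every KO library above. The difference from WT was -0.31 ± 0.0618 in Het (limma, adjusted p = 0.00208) and 0.58 ± 0.0668 in KO (adjusted p = 3.83e-05), and KO lay 0.89 ± 0.0668 above Het (adjusted p = 1.71e-06). Its relative Fmnl2 (gene3665, chromosome 2, 52857716 to 53134202), which elongates filaments of lamellipodia, was at 11.9 to 14.8 FPKM in WT, 14.3 to 15.6 in Het and 11.9 to 13.8 in KO. KO was 0.23 below Het (log2 difference -0.23, adjusted p = 0.0455), a call lost without WT 3, any of Het 1, Het 2 and Het 3, KO 3 or KO 4 (adjusted p = 0.0553, 0.0922, 0.0967, 0.0850, 0.103 and 0.165), with quantile normalization (adjusted p = 0.0762) or with no filter (adjusted p = 0.0690). Het against WT gave 0.20 (adjusted p = 0.0510), which passed without WT 1 (0.26, adjusted p = 0.0140) and under 4 other alternatives (adjusted p = 0.0242 to 0.0495), and KO against WT gave -0.02 (95% confidence interval -0.21 to 0.16).

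Diaph2, the Diaphanous formin mDia3 on the X chromosome (gene45325, 129749668 to 130465834), had the lowest level of the 10 genes and followed the order of Enah: Het, then WT, then KO. It measured 3.75, 2.83, 3.50 and 2.83 FPKM in WT, 4.06, 4.20, 4.09 and 3.76 in Het, and 2.66, 2.47 and 2.59 in KO. The groups did not overlap, though WT 1, at 3.75, and Het 4, at 3.76, almost met, and the half-width of the deposited Cufflinks interval for Diaph2 had a median of 13.5% of the value. KO fell against Het (log2 difference -0.49 ± 0.0909, limma, adjusted p = 0.00116). Het rose against WT by 0.25 ± 0.0841 (adjusted p = 0.0302), a call lost without WT 2, WT 4, Het 1, Het 2 or Het 3 (adjusted p = 0.0890, 0.0714, 0.0629, 0.0715 and 0.0661), with quantile normalization (0.15, adjusted p = 0.258), with no filter (adjusted p = 0.0622) or with only the groups compared (adjusted p = 0.0532). KO against WT missed the threshold at -0.24 ± 0.0909 (adjusted p = 0.0531), and passed without WT 2 (-0.28, adjusted p = 0.0341) or WT 4 (-0.28, adjusted p = 0.0249) and under 5 other alternatives (adjusted p = 0.0102 to 0.0499).

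Diaph1 (gene41586), the Diaphanous formin mDia1 that acts in stress fibres, showed the smallest differences of the 10 genes. It measured 14.0 to 17.1 FPKM in WT, 14.7 to 17.0 in Het and 15.1 to 16.2 in KO, and the groups overlapped throughout. KO differed from WT by 0.02 with a 95% confidence interval of -0.15 to 0.18 (adjusted p = 0.868), and Het from WT by 0.02 with an interval of -0.13 to 0.18 (adjusted p = 0.830). These intervals do not show that the levels are equal, but they leave out differences of the size measured for Fmnl3.

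Daam1, a formin of planar cell polarity signalling (gene30522, chromosome 12, 71831051 to 71992376), measured 7.25, 6.89, 7.26 and 6.08 FPKM in WT, 7.53, 7.37, 7.18 and 6.51 in Het, and 8.79, 7.97 and 7.70 in KO. Every KO library lay above both other groups, though the difference from Het, 0.17, did not pass (limma, adjusted p = 0.115). Against WT, KO was called higher by 0.22 ± 0.0804 (adjusted p = 0.0443). This call was kept in 8 of 23 alternative analyses and was lost on leaving out any library but WT 1 or Het 4, with adjusted p = 0.155 without KO 1 as the highest of these. The difference was 0.13 with no scaling (adjusted p = 0.159) and 0.14 with quantile normalization (adjusted p = 0.267). The locus overlaps Gm7985, whose deposited FPKM, before scaling, were 2.93 to 4.59 in WT, 5.49 to 6.53 in Het and 5.86 to 6.10 in KO. Every KO library was thus above every WT library for Gm7985, as for Daam1. The part of Gm7985 in the Daam1 values was not tested. Fhod1, a formin that bundles and protects stress fibres (gene21830, chromosome 8, 105329160 to 105347970), scattered most, with WT libraries at 6.30, 9.96, 7.02 and 13.7 FPKM, Het at 8.86, 7.57, 10.5 and 11.4 and KO at 8.64, 10.7 and 11.9. Its coefficient of variation in WT was 36.6%, against at most 14.5% for any other member in any group. KO against WT gave 0.20 with a 95% confidence interval of -0.30 to 0.70 (adjusted p = 0.509), wide enough to hold the change seen in Fmnl3. Fhod1 overlaps Tmem208, whose values are likewise as deposited, before scaling. It measured 38.3, 58.6, 42.7 and 66.1 FPKM in WT 1 to WT 4, the same order of libraries as Fhod1. The order differed in Het, with Tmem208 at 54.6, 43.6, 45.0 and 49.3 FPKM, and in KO, at 61.4, 55.3 and 61.3, where KO 1 was highest for Tmem208 and lowest for Fhod1. What part the overlap has in the Fhod1 values was not tested.

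**Figure D2:**
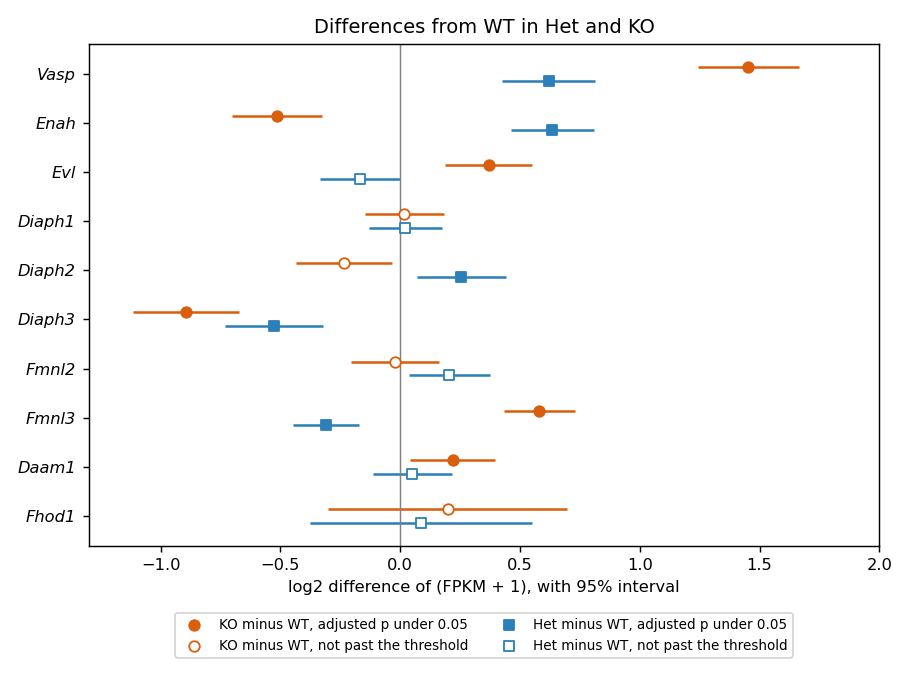
Difference of each gene from WT on the log2(FPKM + 1) scale (horizontal axis), with 95% confidence intervals; circles are KO against WT, squares Het against WT, and filled symbols passed the adjusted p threshold of 0.05. Enah and Fmnl3 have filled symbols on opposite sides of 0, Vasp has both to the right (0.62 and 1.45) and Diaph3 both to the left (-0.53 and -0.89).

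In KO against WT, 4 of the 10 genes rose (Vasp, Fmnl3, Evl and Daam1), 2 fell (Diaph3 and Enah) and 4 did not pass. Over all 14948 genes tested 47.1% passed, 23.3% higher and 23.8% lower, so calls were common throughout and the members' count is read against that share. Among the calls of this comparison 49.4% were higher with scaled values and 37.1% with no scaling, and for KO against Het the shares were 49.8% and 36.5%. In Het against WT, 3 rose (Enah, Vasp and Diaph2), 2 fell (Diaph3 and Fmnl3) and 5 did not pass, with 43.8% of all genes called, 21.7% higher and 22.1% lower. In KO against Het, 3 rose (Fmnl3, Vasp and Evl), 4 fell (Enah, Diaph2, Diaph3 and Fmnl2) and 3 did not pass, with 44.2% of all genes called, 22% higher and 22.2% lower. The median difference over the 10 genes was 0.11 in KO against WT and 0.07 in Het against WT, each against 0.01 over all genes. Both comparisons share the WT libraries, so their values are set side by side and not correlated. The groups did not overlap for 7 genes in KO against WT (46.4% of all genes), 5 in Het against WT (39.5%) and 8 in KO against Het (54%).

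The level of Het was also compared with the midpoint of KO and WT on the log2 scale, a test passed by 44% of all genes, 21.3% higher and 22.8% lower; 3 members lay above, 2 below and 5 did not pass. Vasp and Diaph3 lay close to that midpoint, at -0.11 (95% confidence interval -0.28 to 0.07) and -0.08 (-0.26 to 0.10). Enah lay 0.89 ± 0.0701 above it (limma, adjusted p = 2.82e-06) and Diaph2 0.37 ± 0.0749 above it (adjusted p = 0.00213). Fmnl3 and Evl lay below it, at -0.60 ± 0.0550 (adjusted p = 9.10e-06) and -0.35 ± 0.0675 from it (adjusted p = 0.00159). Fmnl2, at 0.22 (adjusted p = 0.0249), lost its call without Het 1, Het 2, Het 3 or KO 4 (adjusted p = 0.0648, 0.0683, 0.0600 and 0.0556) or with quantile normalization (adjusted p = 0.0604). Daam1, Fhod1 and Diaph1 did not pass.

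The order of levels per transcript length differed between the genotypes. In WT, Diaph3 stood alone at the top with 52.0 FPKM, followed by Fmnl3 and Enah at 27.1 and 26.9, whose libraries overlapped. Evl, Vasp, Diaph1, Fmnl2, Fhod1 and Daam1 then followed from 18.5 down to 6.87, each overlapping the next, and Diaph2 came last at 3.23. In Het, Enah at 42.3 and Diaph3 at 35.6 overlapped at the top, with Vasp at 25.7 and Fmnl3 at 21.6 apart from their neighbours. In KO, Vasp at 46.5 and Fmnl3 at 41.0 overlapped at the top, above Diaph3 at 27.3, Evl at 24.1 and Enah at 18.5, each apart from the next. Summed over the 7 formin members, the level was, as mean ± SD, 126.9 ± 5.99 FPKM (WT, n = 4), 108.8 ± 3.11 (Het, n = 4) and 117.9 ± 2.15 (KO, n = 3). Diaph3 made up 40.8%, 32.7% and 23.2% of that sum, and Fmnl3 21.4%, 19.9% and 34.8%. The sum and shares leave out the other formins, given below, so they do not give the order of the whole family. Among those, Inf2 had the highest means, 16.2 FPKM in WT, 16.9 in Het and 37.0 in KO.

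**Figure D3:**
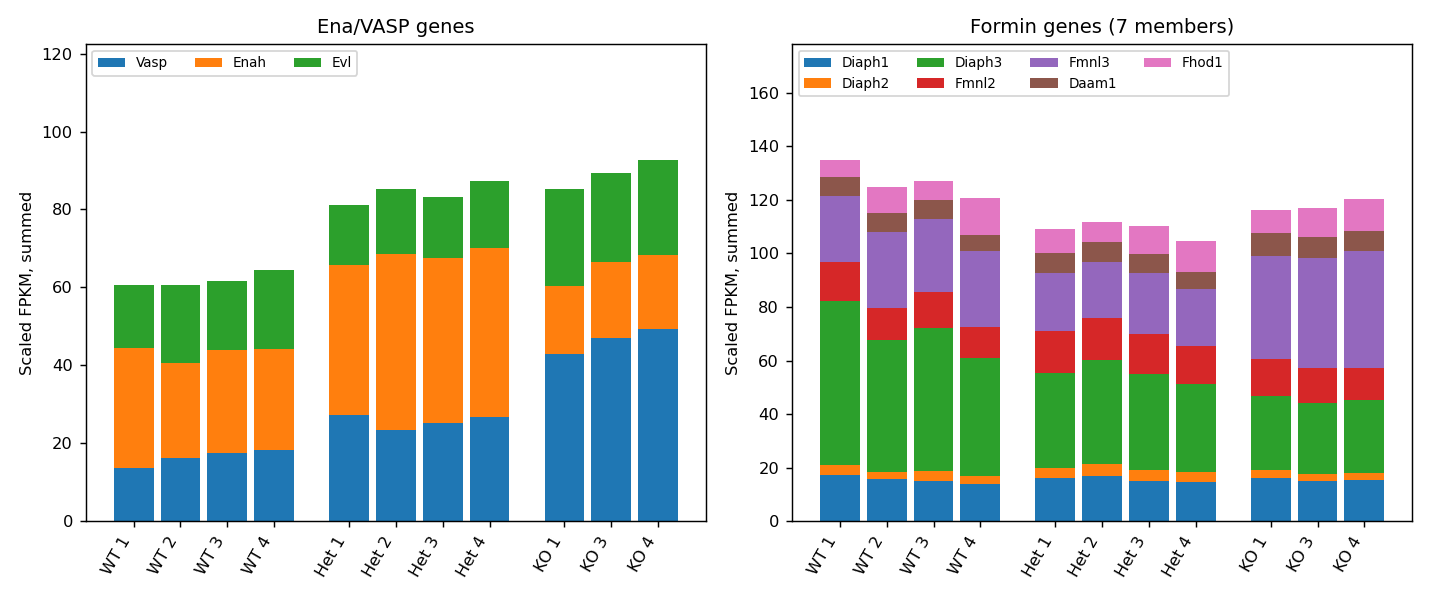
Stacked scaled FPKM per library (vertical axes from 0) for the 3 Ena/VASP genes (left) and the 7 formins (right), coloured by gene. The Enah segment shrinks and the Vasp segment grows in the KO libraries, and the Diaph3 segment falls from 52.0 FPKM in WT to 27.3 in KO while that of Fmnl3 grows from 27.1 to 41.0.

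Some members shared their extreme libraries within a genotype; these were picked after their values were seen. Diaph1, Diaph2, Diaph3 and Fmnl2 were all highest in WT 1 and lowest in WT 4 (for Diaph2 level with WT 2 to 3 digits), and highest in Het 2 and lowest in Het 4, whereas Vasp, Evl and Fhod1 were lowest in WT 1 and highest in WT 4. In KO all 4 of these formins were highest in KO 1, and the lowest library was KO 3 for the Diaphanous genes and KO 4 for Fmnl2. Relative to WT 1, the depth was 126% in WT 4, 60.8% in WT 3, 79.3% in Het 1, 109% in Het 2, 118% in Het 4 and 65.6% in KO 1. The shallowest libraries of WT and Het, WT 3 and Het 1, were not the extreme ones for these 4 formins. The deepest of WT and Het, WT 4 and Het 4, were the lowest for all 4. The shallowest KO library, KO 1, was the highest for all 4. The part of depth in this scatter was not tested. Without WT 1 the KO difference was 1.37 for Vasp and -0.82 for Diaph3, and without WT 4 it was 1.499 and -0.97, and all of these passed.

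The partners of these factors were followed through lists of 42 genes, of which 35 were tested. In KO against WT 18 rose, 7 fell and 10 did not pass, with a median difference of 0.25 against 0.01 over all genes, of which 47.1% were called, 23.3% higher and 23.8% lower. In Het against WT 9 rose, 10 fell and 16 did not pass, with a median of 0.01, against 43.8% of all genes called. The counts by list below are from KO against WT and stand against the same 47.1%. The lists and the named genes were chosen with earlier results of these data known, so the counts are descriptions.

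Of 7 other formins, 5 were tested and all 5 were called between KO and WT, 3 higher and 2 lower, where 47.1% of all genes were called, while Fmn2 and Grid2ip were too low to test. Fmnl1, the FMNL formin best known from blood cells, fell from 3.80 FPKM in WT to 1.48 in Het and 0.553 in KO (log2 difference -1.64, limma, adjusted p = 1.90e-06 in KO). Inf2, a formin that also severs filaments, rose from 16.2 FPKM to 37.0 in KO (1.23, adjusted p = 0.00479), with WT libraries from 9.32 to 26.4. Daam2 rose from 0.325 to 1.66 in Het and 1.76 in KO (1.01 and 1.06, adjusted p = 7.87e-06 and 7.18e-06), and Fhod3, known from sarcomeres of heart muscle, fell from 4.55 to 3.34 in KO (-0.35, adjusted p = 0.00330). Of the 3 FMNL genes, Fmnl3 had the highest mean level in every genotype. Of the profilins, which hand actin monomers to both families, Pfn1 rose from 437 FPKM in WT to 639 in KO (0.55, adjusted p = 6.83e-05), with Het at 416. Pfn2 fell from 33.7 to 12.4 in Het (-1.36, adjusted p = 3.53e-07) and 20.01 in KO (-0.72, adjusted p = 5.42e-05), and Pfn3 and Pfn4 were too low to test.

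Of 10 tested recruiters and ligands of Ena/VASP proteins, 6 rose and 1 fell in KO, and Sema6a was too low to test. Fblim1, which encodes the adhesion adaptor migfilin, went from 15.2 FPKM in WT to 23.7 in Het and 46.3 in KO (0.61 and 1.55, limma, adjusted p = 3.42e-05 and 3.91e-08), almost the levels of Vasp in each group. Lpp, a zyxin relative that carries Ena/VASP to adhesions, rose in KO from 12.7 to 38.5 (1.53, adjusted p = 4.35e-07) and was at 14.1 in Het. Apbb1ip, the adaptor RIAM, rose from 10.1 to 18.1 in KO (0.79, adjusted p = 0.000108) and was at 10.2 in Het. Zyx, the adhesion protein zyxin, was at 87.2 in WT and 137 in KO (0.73, adjusted p = 0.0462), with WT libraries from 48.9 to 128 overlapping KO at 113 to 152. Without WT 1 the Zyx difference was 0.48, and the call was lost without WT 1, WT 3, KO 3, KO 4 or any Het library (adjusted p = 0.0587 to 0.137). It was also lost with no filter, no scaling, quantile normalization, the median of ratios over all genes above 0 or only the groups compared (adjusted p = 0.0510 to 0.103).

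Among 8 formin partners, 3 rose and 2 fell in KO. Spire2, an actin nucleator that works with formins, fell from 5.65 FPKM in WT to 2.34 in Het and 1.54 in KO (-1.34 in KO, limma, adjusted p = 0.000714), while Spire1 rose from 6.95 to 9.23 in KO (0.37, adjusted p = 0.00348). Mapre1, the microtubule end protein EB1, fell from 59.8 to 35.8 (-0.72, adjusted p = 0.000102), and Iqgap1, a scaffold that binds Diaph1, rose from 40.1 to 49.0 in Het and 60.9 in KO (0.28 and 0.59, adjusted p = 0.00151 and 1.15e-05). Of 10 tested kinases that act on these factors, 5 rose and 1 fell in KO, and the ubiquitin ligase genes Trim9 and Trim67 were too low to test. Prkg2, a cGMP-dependent kinase, rose from 5.11 FPKM to 35.8 in KO (2.60, adjusted p = 2.73e-08) with Het at 5.999, and its relative Prkg1, a known kinase of VASP, went from 0.744 to 1.39 (0.46, adjusted p = 0.00248). Abl1 rose from 19.3 to 30.6 (0.65, adjusted p = 0.000620), and Prkaca, the main catalytic subunit of protein kinase A, which phosphorylates Ena/VASP proteins, fell from 96.8 to 74.5 in Het and 72.2 in KO (-0.38 and -0.42, adjusted p = 0.000304 and 0.000201).

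**Figure D4:**
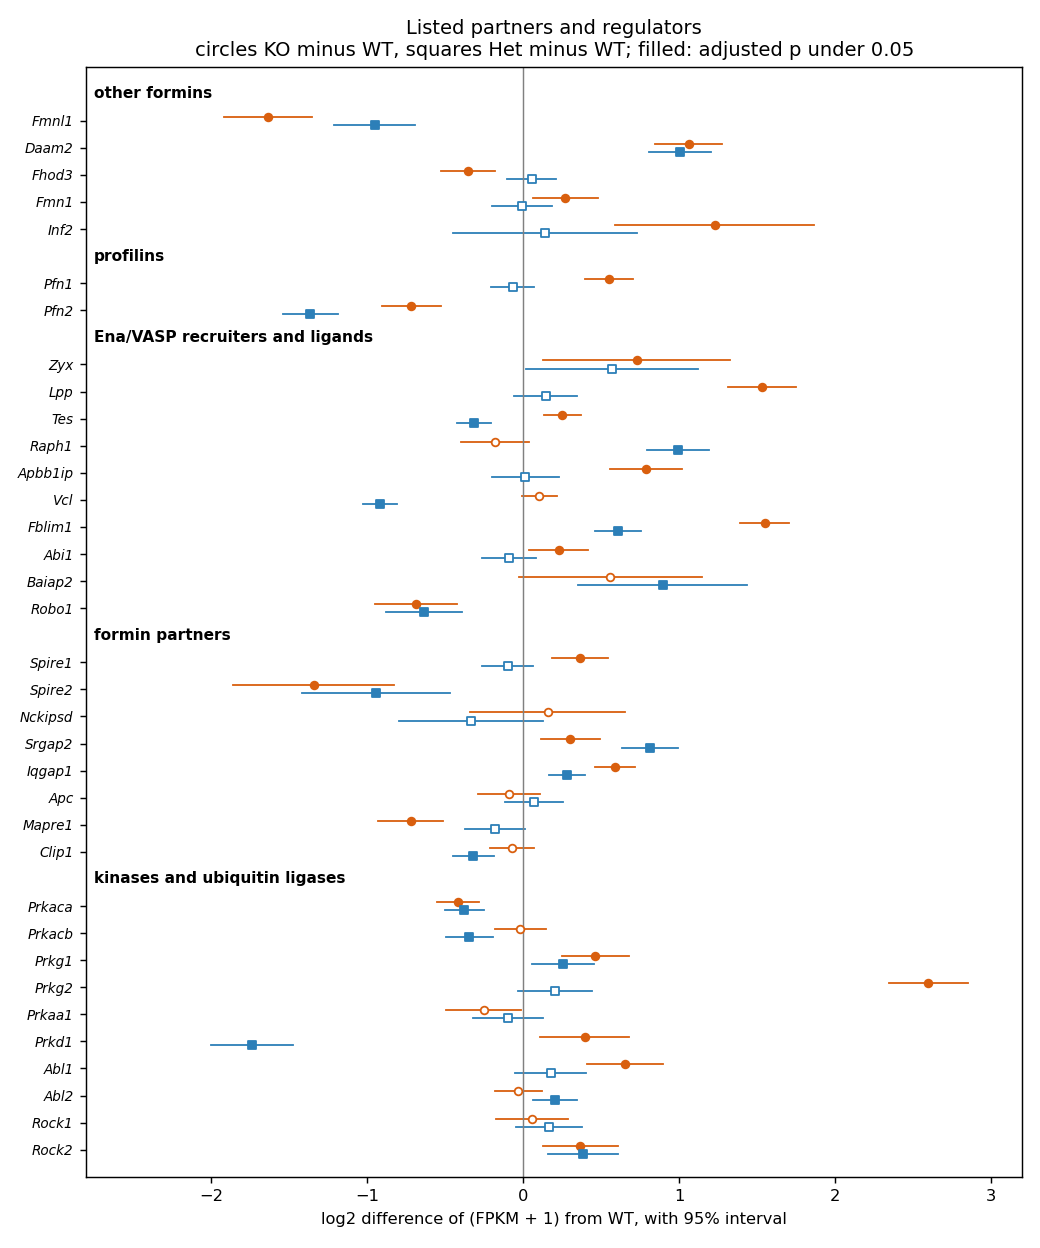
Differences from WT of the 35 tested partner genes on the log2(FPKM + 1) scale (horizontal axis), by list, with 95% confidence intervals; circles are KO, squares Het, and filled symbols passed the adjusted p threshold of 0.05. Prkg2 (2.60), Fblim1 (1.55) and Lpp (1.53) reach farthest right in KO and Fmnl1 (-1.64) farthest left.

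The genes whose log2 levels over the 11 libraries were most like those of Vasp, Enah and Diaph3, the 3 members with the widest range of group means, were found by Pearson's r. The members and genes with Gm, Rik, LOC, clone, Mir, Snor, -ps or -rs names were left out. That left 11284 of the 14948 tested genes to compare. These r values are across libraries of 3 genotypes that differ in many genes, and are descriptions. For Vasp they were Arhgap24 (r = 0.992), Fblim1 (0.992) and Mcoln1 (0.990), and 160 of 11284 genes compared exceeded 0.95. For Enah they were Enpp2 (0.991), at 4.54 FPKM in WT, 12.6 in Het and 1.33 in KO, Mxi1 (0.989) and Figf (0.986), and 99 genes exceeded 0.95. For Diaph3 they were Zdhhc20 (0.995), Trip4 (0.994) and Ktn1 (0.991), and 171 genes exceeded 0.95.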

How the data were processed

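The deposited values are FPKM per gene, which, per the submitters' processing notes, the authors made with TopHat2 2.1.0 and Cufflinks 2.2.1 on the GRCm38.p4 build. The strand setting and annotation are not given in the sources used here. The tables give FPKM and its interval without counts, so no count model was run. FPKM of the 48892 loci was summed per symbol and scaled by the median of ratios over 13981 genes above 0 in every library with a mean of at least 1 FPKM. Genes with at least 1 scaled FPKM in 3 libraries (14948) were tested on log2(FPKM + 1) with limma 3.58.1 (R 4.3.3; trended empirical Bayes, all 11 libraries, two-sided), with Benjamini-Hochberg adjustment over all of them and a threshold of 0.05; the pseudocount of 1 understates changes of low genes. The procedure was tested on simulated data. Named partner genes were the up to 4 per list that passed in KO against WT with the largest difference. Members and lists were chosen with earlier results of these data known, and 1 list of partners is not reported here. Promoters are from RefSeq.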

Additional observations from a re-analysis of the deposited data

How the results depend on the processing

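Over up to 23 alternatives (pseudocounts of 0.1 and 0.5, filters, scalings, a fit without the trend, only the groups compared, each library left out, and 1 scaling chosen after seeing the data), no called difference of a member changed direction: 857 values kept their side of the threshold, 36 lost a call and 13 gained one. Those 49 values concern Daam1, Diaph2, Fmnl2 and Evl. Among Actb and the partner genes named by the rule of up to 4 per list, 45 values lost a call and 10 gained one. The other partner genes, with Raph1, Srgap2, Vcl and Prkd1 among them, were not followed under the alternatives. The called differences of Vasp, Fmnl3, Enah and Diaph3 from WT passed under every alternative run, with KO ranges of 1.36 to 1.51, 0.48 to 0.63, -0.61 to -0.45 and -0.99 to -0.82. Counts of all genes called stayed within 1.5 times the main count. The filter at 5 FPKM left Diaph2 untested. Replicate numbers were shared between groups, and same-numbered libraries deviated together in 5 of 10 pairs (r -0.10 to 0.35 over all 10). These included every pair among WT 4, Het 4 and KO 4 (r 0.25 to 0.35) and WT 1 with KO 1 (r = 0.33). The 3 libraries that correlated best with their own number were WT 4, Het 4 and KO 4. The main fit held no term for the replicate number. A fit with the replicate block called 7294 genes in KO against WT and 6993 in Het against WT, and moved Fmnl2 in Het against WT past the threshold (0.20, adjusted p = 0.0256). The depth is known only relative to WT 1, and the median half-width of the deposited Cufflinks intervals was 6.07% (Diaph3) to 13.5% (Diaph2) of a member's value.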

Other observations

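Some partner genes had their highest or lowest level in Het; they were chosen after their values were seen. Raph1, the lamellipodin that recruits Ena/VASP proteins to the leading edge, measured 15.6 FPKM in Het against 7.34 in WT (0.99, limma, adjusted p = 8.54e-06) and 6.34 in KO. Raph1 in KO was not called against WT (-0.18, adjusted p = 0.153), and the libraries of these groups overlapped. Srgap2, a membrane-bending partner of FMNL formins, had that maximum too, at 19.5 FPKM against 10.7 in WT (0.81, adjusted p = 1.58e-05) and 13.4 in KO. Vcl, the adhesion protein vinculin, was at 61.7 FPKM in Het against 117 in WT (-0.92, adjusted p = 1.55e-07) and 126 in KO, and the kinase gene Prkd1 at 1.05 against 5.80 (-1.74, adjusted p = 1.07e-06) and 7.97. Over the 35 tested partner genes, 6 were called above the midpoint of KO and WT in Het and 15 below it. Over all genes 44% were called, 21.3% above and 22.8% below. The median of the partner genes was -0.17, against 0.00 over all genes.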
